A study of Ceratotherium simum simum with 6 samples.

Results

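The genes described here carry the signals by which the somatic cells of the ovarian follicle hold the oocyte in meiotic arrest, together with kit ligand and its receptor. Loci were chosen by 8 gene names in the deposited table of transcript positions. The names, in the UniProt style of the files, were ANFC (C-type natriuretic peptide, gene NPPC), ANPRB (its receptor, NPR2), IMDH1 and IMDH2 (the IMP dehydrogenases IMPDH1 and IMPDH2), PDE5A, KGP1 (the cGMP-dependent kinase PRKG1), SCF (kit ligand, KITLG) and KIT. They matched 10 loci of 26581, because ANPRB and KGP1 each stood on 2 loci.

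RNA-seq libraries had been made from granulosa cells, the somatic cells that surround and feed the oocyte, of southern white rhinoceroses (Ceratotherium simum simum). Each group was 1 animal with 3 libraries, rhino 2 and rhino 1. All 6 libraries carry the labels wild type, in vivo and a sampling time before IVM, in vitro maturation. The ages of the animals and any hormone treatment are not given in the labels. Nor do they say if an animal's libraries stem from different follicles or from 1 pool, so each p-value measures the spread between libraries, possibly technical, and not between animals.

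In the follicles of mice, granulosa cells secrete C-type natriuretic peptide, which activates NPR2, a receptor that is itself a guanylate cyclase. The cGMP it makes from GTP passes through gap junctions into the oocyte and inhibits PDE3A, so that cAMP stays high and meiosis stays arrested. IMP dehydrogenase is the rate-limiting step towards GTP, PDE5A hydrolyses cGMP and PRKG1 is a kinase that cGMP activates. Kit ligand, made by granulosa cells, acts on the receptor tyrosine kinase KIT of the oocyte and theca and is known for its part in follicle growth.

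Library totals ranged from 703708 to 1523904 counts in rhino 2, and were 13288936, 672410 and 1449450 counts in rhino 1 replicates 1, 2 and 3. The libraries did not place their counts on the same strand. In rhino 1 replicate 1, 0.259% of loci with 50 counts or more held most of them opposite to the named gene, against 98.5 to 98.9% of such loci in the other libraries, so counts of both strands were added wherever both were modelled. A locus with no opposite-strand model can hold counts in rhino 1 replicate 1 but can hold next to none in the others, and this touches KIT, ANFC and 1 of the KGP1 loci. Values are CPM, counts scaled to a library total of 1e+06, and are divided by exonic length (CPM per kb) wherever levels of different genes are set side by side.

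The granulosa label was checked against 10 marker genes, among them FSHR, INHA and CYP19A1. All 10 had counts in both animals, and their summed level, most of it INHA and FST, was 9457 to 15163 CPM in rhino 2 and 13113 to 20883 CPM in rhino 1. Within the list AMH, anti-Müllerian hormone, was higher in rhino 2 (349 ± 74.4 CPM, against 83.7 ± 6.32 CPM in rhino 1, SD, n = 3 each; adjusted p = 0.0315, edgeR). CYP19A1, aromatase, averaged 226 ± 40.8 CPM in rhino 2, against 2413 ± 1340 CPM in rhino 1 (adjusted p = 0.0737 in edgeR, 9.00e-09 in DESeq2 and 0.0131 in limma-voom), with no overlap. Of 14 oocyte markers, 11 were at 0 in every library, and the other 3 summed to 4.82 CPM in rhino 1 replicate 1 alone. All 6 measured mast cell markers were at 0. Of 3 theca markers CYP17A1 and INSL3 were at 0, and LHCGR, which granulosa cells of large follicles express too, lay at 21.3 to 38.02 CPM in rhino 2, against 56.5 to 180 CPM in rhino 1, with no overlap (adjusted p = 0.154, edgeR, and 0.00609, DESeq2). Of 8 endothelial markers 3 (CDH5, TIE1 and CLDN5) were at 0, and the list summed to 169 to 257 CPM in rhino 2 and 57.3 to 113 CPM in rhino 1, nearly all of it from TEK. Of 6 measured smooth muscle markers DES, ACTG2 and LMOD1 were at 0, and the list summed to 581 to 927 CPM in rhino 2 and 374 to 2552 CPM in rhino 1. The genes in these sums went opposite ways. MYH11 averaged 721 CPM in rhino 2 and 188 CPM in rhino 1. CNN1 averaged 18.5 CPM in rhino 2 and 101 CPM in rhino 1, and ACTA2 17.0 and 908 CPM, with 2292 CPM in rhino 1 replicate 2. Of 9 leukocyte markers measured, CD163 was at 0 and only CD68 is modelled on both strands. The list summed to at most 26.9 CPM in rhino 2, all of it CD68. In rhino 1 it summed to 93.8, 0 and 2.07 CPM in replicates 1, 2 and 3. The other markers can hold counts in rhino 1 replicate 1 but next to none elsewhere, so this list does not compare the animals. Every marker named here as at 0, and all but 1 of the oocyte markers, lacks an opposite-strand model, so those zeros rest on rhino 1 replicate 1 alone. In bulk RNA, fewer cells of a type and less RNA per cell cannot be told apart.

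**Figure D1:**
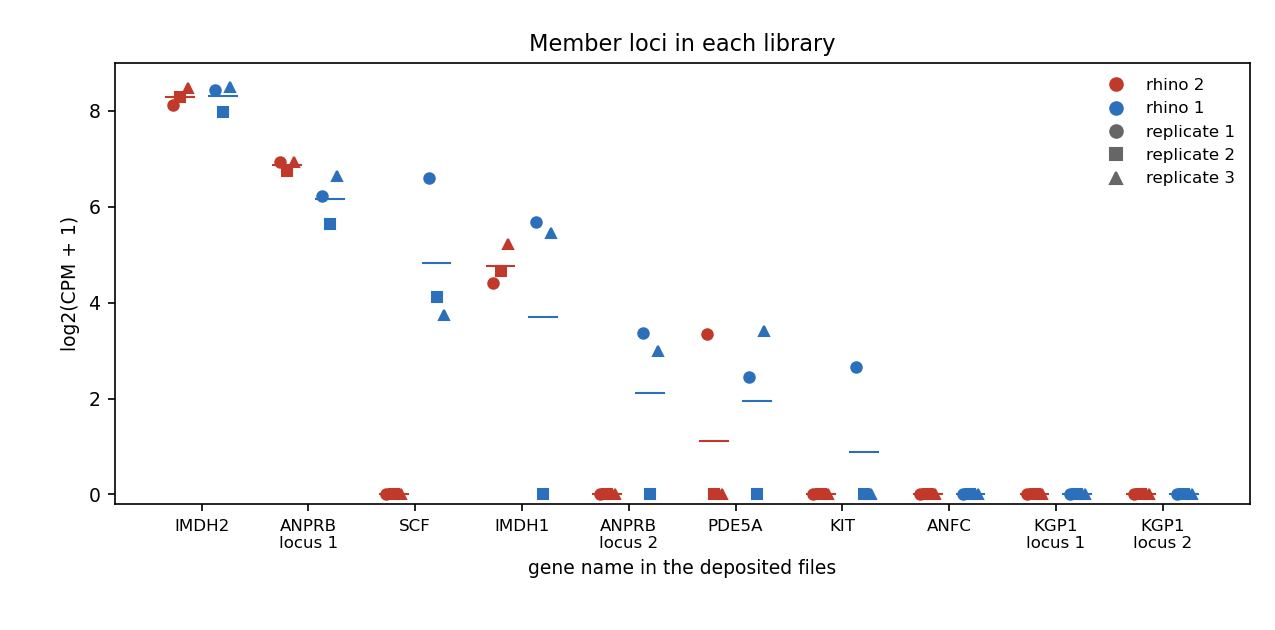
Level of each of the 10 loci in each library, as log2(CPM + 1) on the vertical axis, with rhino 2 in red to the left of rhino 1 in blue and the mean of each animal's log values as a bar. IMDH2 and the first ANPRB locus are the only ones above 1 CPM in all 6 libraries, SCF has counts in rhino 1 alone, and ANFC and both KGP1 loci lie at 0 throughout.

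Of the 10 loci, 2 reached 1 CPM in all 6 libraries, IMDH2 and the first ANPRB locus. The same 2 were the only ones at minimums of 0.1 and 5 CPM. Counts were present in 5 libraries for IMDH1, in 3 for SCF and PDE5A, in 2 for the second ANPRB locus and in 1 for KIT. ANFC and both KGP1 loci had none.

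The ligand of the arrest signal was not seen. ANFC is a short model of 2 exons and 381 bases on scaffold 37 (8189399 to 8190246, plus strand), with no model on the opposite strand. It had 0 counts in every library. Only rhino 1 replicate 1 could report this strand at depth, and there 0 counts allow a level of up to 0.226 CPM, counting error only. In the other 5 libraries a 0 at this locus says nothing about its RNA.

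The receptor was present in both animals. The first ANPRB locus spans 39830472 to 39848057 of scaffold 29 on the minus strand, and its annotated transcript has 22 exons. The opposite-strand model covers 98.8% of its exonic bases and shares 21 of its 22 introns, so that both kinds of library are measured over nearly the same RNA. It had 121, 107 and 121 CPM in rhino 2 replicates 1, 2 and 3, against 73.3, 49.1 and 98.7 CPM in rhino 1 replicates 1, 2 and 3. The animals do not overlap, and the lowest library is the shallowest one, rhino 1 replicate 2, with 33 counts. Of the 8510 loci tested, 24.2% did not overlap between the animals, and 10.6% were of the kind that lay higher in rhino 2. The mean was 116 ± 8.58 CPM in rhino 2 and 73.7 ± 24.8 CPM in rhino 1 (SD, n = 3 each). The log2 fold change, rhino 2 over rhino 1, was 0.73 with an SE of 0.31, which did not pass edgeR's quasi-likelihood test (adjusted p = 0.433). Over all alternatives it lay between 0.49 and 0.98, with adjusted p between 0.132 and 0.828. Among endothelial markers, above, TEK was also higher in each rhino 2 library, and the higher sum of that list rests on TEK. VWF and PECAM1, the other endothelial markers modelled on both strands, reached at most 3.94 and 1.35 CPM in any library. These levels are too low to compare the animals. Whether endothelial cells had a part in the ANPRB values was not tested.

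In rhino 1 replicate 1, the only library counted on the gene's own strand, ANPRB counts were split between 2 transcripts. The annotated transcript took 518 counts and an assembled transcript of 16 exons and 2115 bases, which covers the 3′ side of the gene, took 456. The shorter one held 46.8% of the locus (95% Wilson interval 43.7 to 49.96, counting error only). StringTie divides reads of shared exons between transcripts by model, so this share is an estimate. In the other transcript-level libraries a long opposite-strand transcript of 22 exons held every count, except in rhino 1 replicate 3, where it held 139 of 143 and a transcript of 4 exons held 4.

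The second locus with the name ANPRB lies 37.3 kb away on the same scaffold, at 39885359 to 39888687, between the genes named MSMP and GBA2. It is a short locus of 1139 exonic bases with opposite-strand models over 98.2% of them. It had 0 counts in all 3 rhino 2 libraries, against 123, 0 and 10 counts (9.26, 0 and 6.90 CPM) in rhino 1 replicates 1, 2 and 3. It did not pass the filter on low counts and was not tested. In the RefSeq annotation of another assembly, ASM5780239v1, NPR2 is listed once, and MSMP and GBA2 are neighbours. The deposited table numbers an annotated transcript of each locus as t1 and t2 of the same predicted gene, but the assembly gave the loci separate identifiers, and their values were kept apart.

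IMDH2, the IMP dehydrogenase that predominates in proliferating cells, was the most abundant of the genes. It spans 72060870 to 72065645 of scaffold 5 on the minus strand, and the opposite-strand model covers 100% of its exonic bases and all 13 of its introns. It had 279, 313 and 355 CPM in rhino 2, against 346, 253 and 359 CPM in rhino 1, for replicates 1, 2 and 3. The ranges overlap, and rhino 1 held both the lowest and the highest library. The mean was 316 ± 38.2 CPM in rhino 2 and 319 ± 57.9 CPM in rhino 1 (SD, n = 3 each). Per length this was 173 ± 21.0 CPM per kb in rhino 2 and 175 ± 31.8 CPM per kb in rhino 1. Among 13339 named loci with counts in any library it ranked within the highest 2.23% in rhino 2 and the highest 2.54% in rhino 1. Loci at 0 in an animal stay in that base and begin at rank 9316 in rhino 2 and 13249 in rhino 1. The percentages therefore do not compare the animals. The log2 fold change was 0.06 with an SE of 0.23 and did not pass edgeR's test (adjusted p = 0.991), and its sign turned when rhino 2 replicate 3 (−0.02) or rhino 1 replicate 2 (−0.11) was left out.

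IMDH1, the isozyme described in mammals as constitutively expressed and as prominent in the retina, was present at lower levels. It lies on the plus strand of scaffold 1 at 26379704 to 26396136. It had 20.3, 24.2 and 36.2 CPM in rhino 2, against 50.3, 0 and 42.8 CPM in rhino 1, for replicates 1, 2 and 3. The single 0 falls in rhino 1 replicate 2, where the mean level of the other 5 libraries would give 23.4 counts. Such zeros were common in that library: of 2522 named loci modelled on both strands with a mean of 20 to 50 CPM in the other 5 libraries, 697 (27.6%) were also at 0 there. The mean was 26.9 ± 8.26 CPM in rhino 2 and 31.0 ± 27.1 CPM in rhino 1 (SD, n = 3 each). The log2 fold change was −0.19 with an SE of 1.23 and did not pass edgeR's test (adjusted p = 0.999). Its direction depended on single libraries, and the fits in which it turned are given under the processing.

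Per length, IMDH2 exceeded IMDH1 in every library. The ratio of their CPM per kb was 18.5, 17.5 and 13.3 in rhino 2 replicates 1, 2 and 3, against 9.31 and 11.3 in rhino 1 replicates 1 and 3. In rhino 1 replicate 2, where IMDH1 was at 0, no ratio could be formed. With IMDH1 set at 3 counts there the ratio is 76.5, but zeros at this level were common in that library, as given above, and counting error alone does not bound it. Without that library the animals do not overlap, and the mean log2 ratio was 4.02 ± 0.257 in rhino 2 (SD, n = 3) and 3.36 ± 0.200 in rhino 1 (SD, n = 2). The difference of 0.66 gave an exact two-sided permutation p = 0.2, the smallest p that 3 libraries against 2 allow. With rhino 1 replicate 2 kept and IMDH1 at 3 counts, an alternative added after the values were seen, the ranges overlap and the difference turns to −0.30 (exact two-sided permutation p = 1).

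The enzyme that removes cGMP was near the detection limit. PDE5A spans 13076136 to 13204084 of scaffold 12 on the minus strand, and its opposite-strand model covers 100% of the named exonic bases and all 20 introns. It had 14, 0 and 0 counts (9.19, 0 and 0 CPM) in rhino 2, against 59, 0 and 14 counts (4.44, 0 and 9.66 CPM) in rhino 1, for replicates 1, 2 and 3. The animals overlap, and the 3 libraries at 0 would hold between 5.22 and 8.37 counts at the mean level of the others, so a difference was not detectable at this depth. In rhino 1 replicate 1, 46 of the 59 counts stood on the opposite-strand model, whereas 0.259% of 9277 loci with at least 50 counts had most of their counts there in that library. That model, of 6959 bases against 2598 in the annotated one, runs on past the 3′ end of the annotated gene.

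The cGMP-dependent kinase PRKG1 was not detected. Its loci lie on scaffold 6 at 43130922 to 43629913, with no opposite-strand model, and at 44208875 to 44256287, where opposite-strand models cover 28.9% of the exonic bases. Both had 0 counts in all 6 libraries, which in rhino 1 replicate 1 allows up to 0.226 CPM each.

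Kit ligand counts were found in rhino 1 and not in rhino 2. SCF spans 14820089 to 14903657 of scaffold 25 on the minus strand. It had 0 counts in rhino 2 replicates 1, 2 and 3, against 1282, 11 and 18 counts (96.5, 16.4 and 12.4 CPM) in rhino 1 replicates 1, 2 and 3. The animals do not overlap, as was also true, in the direction lower in rhino 2, of 13.6% of all tested loci. A pattern of 0 in all 3 rhino 2 libraries and counts in all 3 of rhino 1 was seen at 18 of 7712 tested loci modelled on both strands (0.233%). Those loci span all levels. Among 1200 such named loci with a mean of 10 to 20 CPM in rhino 1 replicates 2 and 3, as for SCF, 39 (3.25%) were at 0 in all of rhino 2. Of the 512 of them with counts in all 3 rhino 1 libraries, 11 (2.15%) were.

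The 3 rhino 1 libraries did not measure the same piece of the gene. The full model has 10 exons and 5363 bases, 4378 of them in the last exon, and holds the counts of rhino 1 replicate 1. The opposite-strand models cover 20.2% of those bases: one of 665 bases reaches from exon 1 to exon 6 and held the 18 counts of rhino 1 replicate 3, and another of 421 bases reaches from exon 7 into exon 10 and held the 11 counts of rhino 1 replicate 2. All 8 of their introns are introns of the named gene. Per kb of the model that held the counts, the levels of rhino 1 replicates 1, 2 and 3 were 17.99, 38.9 and 18.7 CPM. Replicate 1 does not lie above the others on that scale. For replicates 2 and 3 the scale leaves out the other short model, which was at 0 there, so their levels are raised by the choice of model.

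**Figure D2:**
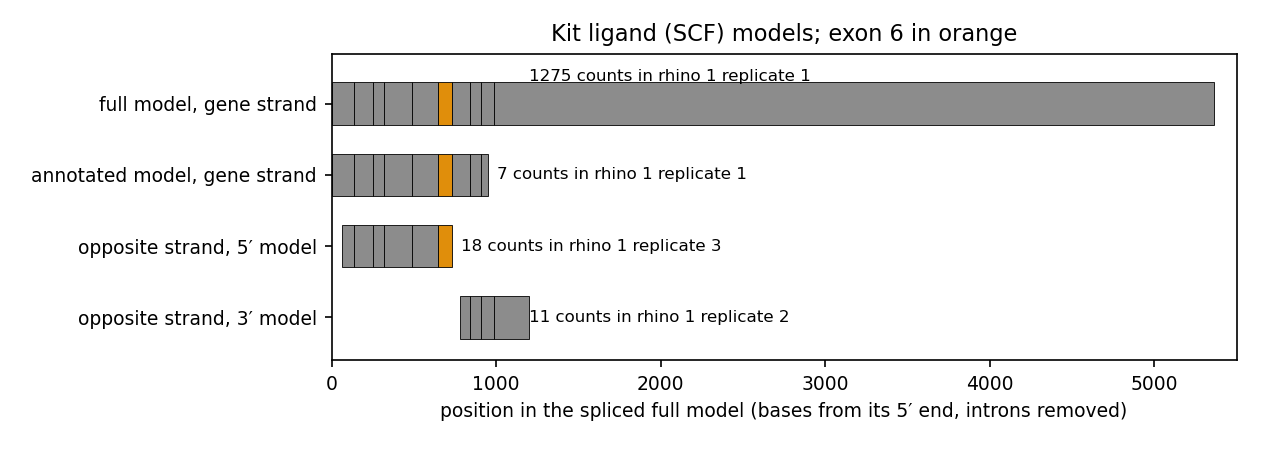
Models of the kit ligand gene along its spliced length in bases from the 5′ end, introns removed, with exons as boxes, exon 6 in orange and the counts of the rhino 1 library that each model holds. The full model of 5363 bases holds 1275 counts, while the opposite-strand models, which serve the other libraries, reach only its first 6 exons (18 counts) or exons 7 to 10 (11 counts). No model holds counts of rhino 2.

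Since 5 libraries, among them all of rhino 2, can report kit ligand only through the short opposite-strand models, the closest comparison is with rhino 1 replicates 2 and 3. It is not like for like. The model of 421 bases held 11 counts in replicate 2 and 0 in replicate 3, and that of 665 bases held 0 and 18. At their mean of 14.4 CPM, rhino 2 replicates 1, 2 and 3 would hold 21.9, 10.1 and 15.5 counts, and each held 0. With rhino 2 set at 3 counts per library, a mean of 3.00 CPM, kit ligand would be 4.79-fold lower in rhino 2 than in those libraries. Each short model was also at 0 in a library of rhino 1, so counting error alone does not bound this value. AMH, CYP19A1 and LHCGR, above, also lay apart between the animals, and their part in the kit ligand values was not tested.

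The tools differed on this contrast. edgeR's quasi-likelihood test gave an unadjusted p of 0.0067 and an adjusted p = 0.170, and limma-voom gave an adjusted p = 0.179, while DESeq2 gave an adjusted p = 7.67e-04. The fitted edgeR log2 fold change of −10.02 (SE 2.12) rests on the prior count and is no bound. SCF passed the filter on low counts only through rhino 1, the animal where it is high, so these p-values lend the difference no support. Of all tested loci, edgeR called 0.235%, DESeq2 6.82% and limma-voom 10.6%. Of the 4 loci that passed the filter on low counts (ANPRB, SCF, IMDH1 and IMDH2), edgeR called 0, with 1 at an unadjusted p under 0.05, DESeq2 called 1 and limma-voom 0.

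In mice and humans an alternatively spliced exon, the sixth, carries the cleavage site at which membrane-bound kit ligand is shed. In the rhinoceros model the sixth exon has 84 bases, a multiple of 3, so that its removal would keep the reading frame. It was whole in the full model and the annotated one. The opposite-strand model of 665 bases ends inside it, with 83 of its 84 bases, and the other starts inside exon 7. No model that skips it was assembled, but only the full and annotated models run past it. Within rhino 1 replicate 1, the full model took 1275 counts and the annotated one of 9 exons took 7. ADAM17, one of the proteases known to shed kit ligand, had 86.6, 45.5 and 53.8 CPM in rhino 2, against 56.4, 46.1 and 34.5 CPM in rhino 1, which overlap, and MMP9, another, modelled on 1 strand, had 3.84 CPM in rhino 1 replicate 1 and 0 elsewhere.

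KIT, the receptor, had 0 counts in all of rhino 2 and 70, 0 and 0 counts (5.27 CPM in the first) in rhino 1 replicates 1, 2 and 3. It lies on the plus strand of scaffold 8 at 42709509 to 42786925, with 21 exons and no opposite-strand model. The libraries at 0 are those whose counts lie on the other strand, and at that level they would hold only 3.54 to 8.03 counts, so nothing can be said of KIT in rhino 2. KIT marks oocytes, theca and mast cells. In rhino 1 replicate 1, 3 of 14 oocyte markers had counts (GDF9 at 3.91, NLRP5 at 0.527 and ZAR1 at 0.376 CPM) and the other 11, among them BMP15 and ZP1 to ZP4, were at 0. Of 3 theca markers LHCGR had 180 CPM and CYP17A1 and INSL3 were at 0, as were all 6 mast cell markers, and the source of the KIT counts was not tested.

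The order of the genes by CPM per kb began alike in the animals. In rhino 2 it was IMDH2 (173), the first ANPRB locus (28.0), IMDH1 (10.9) and PDE5A (0.440), with no overlap between neighbours down to IMDH1 and PDE5A. In rhino 1 it was IMDH2 (175), the first ANPRB locus (17.7), IMDH1 (12.6), SCF (7.78), the second ANPRB locus (4.35), PDE5A (0.675) and KIT (0.602). There IMDH2 lay apart, and each later neighbour overlapped the next. The scale divides by all exonic bases of a locus, so SCF is understated in the 2 libraries that report only part of it.

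The wider pathway was read from 6 lists of 116 symbols, of which 113 matched the files and 62 were tested. edgeR called 0 of the 62, with 10 at an unadjusted p under 0.05 (12.1% of all tested loci had such a p). DESeq2 called 6 of the 62, against 6.82% of all tested loci, and limma-voom 6, against 10.6%. The lists hold all 8 genes described above, of which IMPDH1, IMPDH2, NPR2 and KITLG are among the 62 tested.

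Among natriuretic peptides, receptors and guanylate cyclases, 5 of 14 were tested, 4 with higher and 1 with lower fitted levels in rhino 2. The median log2 fold change was 0.68, against 0.05 over all tested loci. NPR3, the clearance receptor that binds natriuretic peptides without making cGMP, was the most abundant per length, at 47.2 CPM per kb in rhino 2 and 122 CPM per kb in rhino 1, whereas NPR2 had 28.0 CPM per kb in rhino 2 and 17.7 CPM per kb in rhino 1. NPR3 had 274, 423 and 285 CPM in rhino 2, against 977, 708 and 853 CPM in rhino 1. The animals do not overlap, and the log2 fold change of −1.29 (SE 0.27) did not pass edgeR's test (adjusted p = 0.117) but passed DESeq2 (adjusted p = 1.62e-04) and limma-voom (adjusted p = 0.0123).

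FURIN, the convertase that cuts the C-type natriuretic peptide precursor, had 162, 104 and 110 CPM in rhino 2, against 75.6, 122 and 55.2 CPM in rhino 1, which overlap. GUCY1B1, a subunit of the nitric oxide receptor, had 30.8, 27.0 and 30.6 CPM in rhino 2, against 27.8, 0 and 29.0 CPM in rhino 1. Its partner subunit GUCY1A1, named after its values were seen, had 22.3, 38.4 and 24.1 CPM in rhino 2, against 23.3, 0 and 17.2 CPM in rhino 1. The 0 of both subunits falls in rhino 1 replicate 2, the library where IMDH1 was also at 0. The receptor NPR1, modelled on both strands, was at 0 in all 6 libraries, and NPPA and NPPB, modelled on 1 strand, were at 0 as well.

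**Figure D3:**
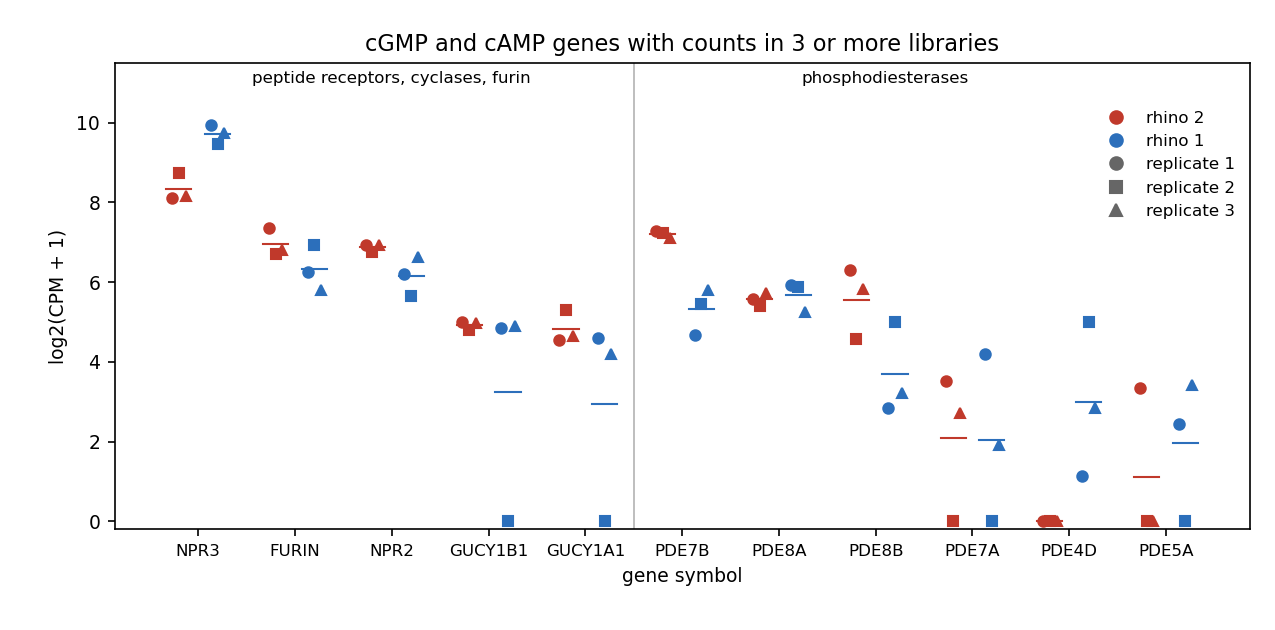
Level in each library, as log2(CPM + 1), of the listed natriuretic peptide receptors, guanylate cyclase subunits and FURIN (left of the grey line) and of phosphodiesterases (right), for those with counts in 3 or more libraries, rhino 2 in red to the left of rhino 1 in blue, with bars at the mean of the log values. NPR3 and PDE4D lie lower, and NPR2 and PDE7B higher, in all 3 rhino 2 libraries than in any of rhino 1, while PDE5A is at 0 in 3 of the 6.

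Of 22 phosphodiesterases and cGMP kinases measured, 10 were at 0 in every library and 3 were tested, with 2 higher and 1 lower in rhino 2 and a median log2 fold change of 1.96. By the locus analysed for each gene, 11 of the 22 are modelled on both strands. The others can hold next to no counts outside rhino 1 replicate 1 and could not show steady counts. Of those at 0, only PDE3A and PDE3B are modelled on both strands. Among phosphodiesterases modelled on both strands, the ones with steady counts act on cAMP. PDE7B had 156, 151 and 136 CPM in rhino 2, against 24.6, 43.1 and 55.2 CPM in rhino 1. These do not overlap, and the log2 fold change of 1.96 (SE 0.33) did not pass edgeR's test (adjusted p = 0.0737), with DESeq2 at an adjusted p = 1.97e-05 and limma-voom at 0.0031. PDE8B had 77.4, 22.7 and 55.6 CPM in rhino 2, against 6.17, 31.2 and 8.28 CPM in rhino 1, which overlap (log2 fold change 1.96, SE 0.78; adjusted p = 0.386 in edgeR, 0.175 in DESeq2 and 0.0035 in limma-voom). PDE8A had 46.6, 41.2 and 51.9 CPM in rhino 2, against 59.7, 58.0 and 37.3 CPM in rhino 1, which overlap as well. PDE4D, modelled on both strands and named after its values were seen, went the other way from PDE7B. It had 0, 0 and 0 CPM in rhino 2, against 1.20, 31.2 and 6.21 CPM in rhino 1, which do not overlap. PDE4D did not pass the filter on low counts and was not tested. PDE3A, the oocyte enzyme that cGMP inhibits, and PDE3B, both modelled on both strands, were at 0 in all 6 libraries, as was the cGMP-dependent kinase PRKG2, modelled on 1 strand.

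Purine synthesis, which supplies GTP, was broadly present: 20 of 29 enzymes had counts in all 6 libraries. Of 23 tested, 9 were higher and 14 lower in rhino 2, with a median log2 fold change of −0.19. GMPS, which turns the product of IMP dehydrogenase into GMP, had 132, 134 and 114 CPM in rhino 2, against 185, 238 and 169 CPM in rhino 1. ATIC, which makes IMP, had 99.1, 117 and 134 CPM in rhino 2, against 155, 235 and 177 CPM in rhino 1. Neither pair of ranges overlaps, and neither passed edgeR's test (adjusted p = 0.315 for GMPS and 0.346 for ATIC). APRT, of adenine salvage, had 36.1, 114 and 75.1 CPM in rhino 2, against 79.5, 159 and 162.8 CPM in rhino 1, which overlap. The names ATIC, GMPS, APRT, PDE8B, PDE4D, ADCY1 and PIK3R1 each stand on more than 1 locus, and the values are those of the locus with the most counts.

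NT5E, the ecto-enzyme that makes adenosine from AMP, showed the widest gap of the purine list and was named after its values were seen. It had 31.5, 31.3 and 37.1 CPM in rhino 2, against 165, 113 and 113 CPM in rhino 1, which do not overlap. The log2 fold change of −1.90 (SE 0.30) did not pass edgeR's test (adjusted p = 0.0665) but passed DESeq2 (adjusted p = 1.04e-05) and limma-voom (adjusted p = 0.033).

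Of the genes that keep oocyte cAMP high or join the cells, GJA1, the connexin of granulosa gap junctions, led at 663 CPM per kb in rhino 2 and 761 CPM per kb in rhino 1. GJA1 had 2809, 2475 and 2075 CPM in rhino 2, against 3454, 2266 and 2730 CPM in rhino 1, which overlap. GNAS, the stimulatory G protein, had 938, 1152 and 1048 CPM in rhino 2, against 1324, 1203 and 1136 CPM in rhino 1, which overlap. ADCY1, an adenylyl cyclase, had 206, 179 and 107 CPM in rhino 2, against 95.1, 0 and 51.7 CPM in rhino 1, which do not overlap (adjusted p = 0.702, edgeR). Of the 15 genes 5 were tested, 3 higher and 2 lower in rhino 2, with a median of 0.21. GJA4, in mice the connexin of the oocyte side, and the receptors GPR6 and GPR12 were at 0 throughout, and GPR3 had 0.602 CPM in rhino 1 replicate 1 only, but all 4 are modelled on 1 strand.

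PPP-family phosphatases, which in rodents dephosphorylate NPR2 after the luteinizing hormone surge, were present in both animals. PPP2CA had 214, 202 and 161 CPM in rhino 2, against 128, 213 and 196 CPM in rhino 1. PPP2CB had 164, 138 and 160 CPM in rhino 2, against 113, 181 and 167 CPM in rhino 1. PPP1CA had 110, 175 and 146 CPM in rhino 2, against 162, 241 and 206 CPM in rhino 1. Each of these 3 catalytic subunits overlapped between the animals. Of 9 subunits measured 7 were tested, 3 higher and 4 lower in rhino 2, with a median log2 fold change of −0.07.

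The last list holds KIT, kit ligand, the sheddases ADAM17 and MMP9 and genes of KIT signalling, and 19 of its 24 genes were tested, 8 higher and 11 lower in rhino 2, KITLG among the 11. The median log2 fold change was −0.12. The signalling genes serve many receptors. AKT1 had 202, 188 and 203 CPM in rhino 2, against 329, 216 and 289 CPM in rhino 1, which do not overlap (adjusted p = 0.618, edgeR). PIK3R1, the regulatory subunit of phosphoinositide 3-kinase, had 289, 138 and 228 CPM in rhino 2, against 297, 199 and 195 CPM in rhino 1. SHC1, an adaptor, had 123, 112 and 111 CPM in rhino 2, against 178, 116 and 188 CPM in rhino 1. PIK3R1 and SHC1 overlap between the animals. STAT3, named after its values were seen, had 113, 28.4 and 110 CPM in rhino 2, against 22.0, 17.8 and 22.1 CPM in rhino 1. STAT3 did not overlap and had the largest positive log2 fold change of the list, 2.09 (SE 0.56), with an adjusted p = 0.180 in edgeR, 0.0188 in DESeq2 and 0.0373 in limma-voom.

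**Figure D4:**
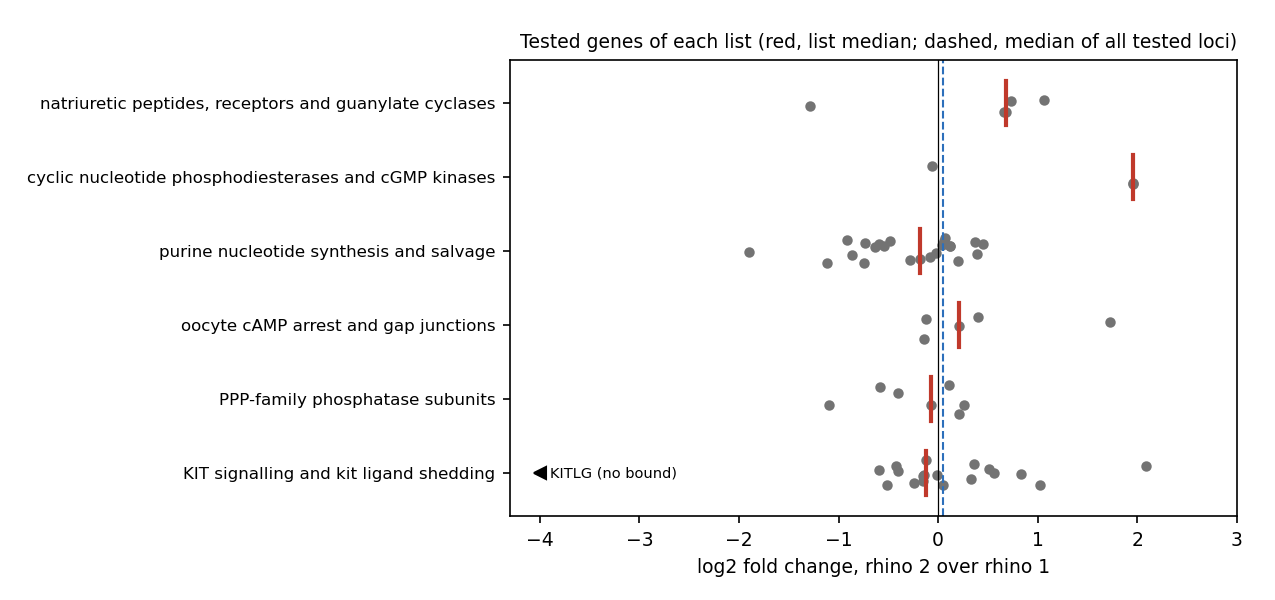
Log2 fold change, rhino 2 over rhino 1, of each tested gene (grey points) in the 6 lists, with the list's median in red and the median of all 8510 tested loci (0.05) as a dashed line. The 3 phosphodiesterases have a median of 1.96, the lists with more than 5 tested genes have medians between −0.19 and −0.07, and KITLG is drawn as a triangle at the left edge because its fitted value is no bound.

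Non-overlapping levels were found for 4 of 23 tested purine genes, 5 of 19 genes of the KIT list (KITLG among them), 2 of 5 natriuretic genes, 1 of 3 phosphodiesterases, 1 of 5 cAMP and gap junction genes and 1 of 7 phosphatase subunits. The background over all tested loci was 24.2%, and for the larger lists the share lay near it.

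The loci whose pattern over the 6 libraries lay closest to each measured gene were found by the Euclidean distance between log2(CPM + 1) values centred on their mean, among 5413 named loci at 10 CPM or more in both animals for ANPRB and 5412 for the others. For ANPRB they were UBE2B, a ubiquitin-conjugating enzyme, at 0.24 and RHBD2 at 0.28, where the median distance of all loci was 1.79. For IMDH2 they were CHSS2 at 0.17 and TLE2 at 0.18, with a median of 1.37. For IMDH1 they were RBP56 at 0.31 and SIAS at 0.44, with a median of 4.91. The IMDH1 pattern is ruled by its 0 in rhino 1 replicate 2, the shallowest library. With 6 points, these distances describe the libraries and are no test.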

How the data were processed

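RNA was isolated with PicoPure and made into libraries with NEBNext Ultra II, per the labels' protocols. Trimmomatic, HISAT2 and StringTie are named in the submitters' processing notes. Build, annotation and strand setting: not given in the sources used here. The authors deposited raw read counts, per transcript for 5 libraries and per gene for rhino 2 replicate 1, and scaffold coordinates are those of their position table. Transcripts were summed to 40656 genes. Of 18087 unnamed genes, 14075 that covered at least 50% of the shorter exonic length opposite to a named gene were added to the one they shared most bases with. Of the named loci, 10525 were so modelled on both strands. A 0 was read as at most 3 counts.

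The animals were compared with edgeR 4.0.16 (R 4.3.3; TMM, filterByExpr, quasi-likelihood test, two-sided, no covariate), with Benjamini-Hochberg adjustment over all 8510 loci that passed the filter and a threshold of 0.05. Every adjusted p is from edgeR unless DESeq2 1.42.0 or limma-voom (limma 3.58.1) is named. Each fold change is rhino 2 over rhino 1. The script was checked on simulated counts. The genes and lists were chosen with earlier results of these data known. Named by rule besides the 8 genes are, per pathway list, genes past the threshold (none were), the 3 most abundant per kb, and the 2 loci closest in pattern. Further list genes were named outside these rules: NPR1, NPPA, NPPB, PDE3A, PDE3B, PRKG2, GJA4, GPR3, GPR6, GPR12, ADAM17 and MMP9. GUCY1A1, NT5E, STAT3 and PDE4D were named after their values were seen. List symbols were matched by UniProt entry name, and MME, PDE1B, PPP1CB, TAGLN, TPSAB1 and AIF1 are not analysed here.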

Additional observations from a re-analysis of the deposited data

How the results depend on the processing

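The count of loci that differed between the animals depended strongly on the fit. It was 20 of 8510 in edgeR, 580 with DESeq2, 905 with limma-voom, 150 with no filter on low counts and 128 among loci modelled on both strands. It was 0 with the strands not joined (239 at an unadjusted p under 0.05), where SCF, ANPRB and the IMDH loci had no fit. It was between 0 and 49 with 1 library left out, the 49 without rhino 1 replicate 1, and 22, 14 and 27 with DESeq2 size factors, a mean of at least 5 CPM and joining at any overlap. With the replicate number as a block it was 0 (785 at an unadjusted p under 0.05). The labels do not say what the numbers share between the animals. Correlations of same-numbered libraries were 0.20, 0.13 and 0.0085, against −0.18 to 0.010 for libraries of different numbers. Whether equal numbers mark a shared batch was not tested. Of the pathway lists, edgeR called 0 genes, against 6 with DESeq2, 6 with limma-voom, 2 with no filter and 2 among loci on both strands, and 0 in each fit with 1 library left out. With strands not joined, 0 of the 10 loci were detected in all 6 libraries, against 2.

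SCF passed only DESeq2 (−7.88). Its direction is fixed by the zeros of rhino 2 and shows no stability. With 1 library left out, ANPRB lay between 0.49 and 0.98, SCF between −10.63 and −6.89, IMDH2 between −0.11 and 0.16 and IMDH1 between −0.75 and 0.38. IMDH2 was negative without rhino 2 replicate 3 (−0.02) or rhino 1 replicate 2 (−0.11). IMDH1 was positive without rhino 2 replicate 1 (0.0016), rhino 1 replicate 1 (0.38) or rhino 1 replicate 3 (0.06) and with the replicate block (0.60), and the cause was not tested. The log2 ratio of IMDH2 to IMDH1, taken without rhino 1 replicate 2, differed by 0.52 to 0.81 with each other library left out in turn, and by −0.30 with rhino 1 replicate 2 kept and IMDH1 at 3 counts there. Depth limits PDE5A, KIT and any zero in rhino 1 replicate 2, where 0 counts allow 4.46 CPM.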
